A study of Mus musculus with 2 samples.

Results

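Complement is a cascade of plasma proteins that marks targets for uptake and releases small peptides that activate leukocytes. The classical pathway starts when C1q binds a target, and the alternative pathway is driven by C3, factor B and properdin, which stabilises the C3-cleaving enzyme. Cleavage of C3 and C5 releases the peptides C3a and C5a, which act on receptors of myeloid cells, while membrane regulators such as CD55 limit the cascade on host cells. Hepatocytes make most complement of the plasma, whereas macrophages are a known local source of C1q and neutrophils store properdin.

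The complement components and receptors described here were 9 genes chosen by symbol, and each matched 1 row of the 34745 listed. They are the C1q chain genes C1qa, C1qb and C1qc, the central component C3, factor B (Cfb) and properdin (Cfp), the anaphylatoxin receptors C3ar1 and C5ar1, and the regulator Cd55. RNA came from bone marrow cells of mice aged 6 to 8 weeks, kept for 7 days in GM-CSF at 50 ng/ml, alone (CHBP- M-MDSC) or together with the erythropoietin-derived cyclic helix B peptide (CHBP+ M-MDSC), then sorted as CD11b+ Ly6G- Ly6C high monocytic myeloid-derived suppressor cells. No genetic change was stated for either library. There was 1 library per condition, and with 2 libraries in all no spread between replicates can be given and no test between conditions can be made. The labels list the CHBP- library as C57BL/6 and the CHBP+ library as C57BL/7, whereas the methods name C57BL/6 mice as the wild-type marrow donors. If the labels are taken as written, strain and treatment cannot be told apart. The number of mice behind a library was not given in the sources used here, and the peptide dose is stated in micromolar in one place and in nanomolar in another.

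The libraries held 16484504 counted reads (CHBP-) and 16280466 counted reads (CHBP+). A gene without a read could be present at up to 0.182 or 0.184 CPM (reads scaled to the library total), the level of 3 reads. Levels are given in FPKM, reads scaled by the authors to gene length and to the library total, which allows levels of different genes to be compared. The log2 ratio of a gene is that of (FPKM + 1) in CHBP+ over (FPKM + 1) in CHBP- M-MDSC, and it understates differences of genes with low FPKM. The read ratio is the ratio of CPM, CHBP+ over CHBP-, with an exact 95% Clopper-Pearson interval that covers counting error only.

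The complement genes spanned a wide range of levels, and by the deposited FPKM only the neighbours C1qa and C1qb changed places in their order between the libraries. With GENCODE M1 transcript lengths, C3 and Cfp changed places as well, and so did Cd55 and C1qa. C3 and Cfp were abundant transcripts, the receptors were intermediate, the C1q chains and Cd55 were low, and Cfb was under 1 FPKM in both libraries by the deposited length. C3 stood at rank 132 of all listed genes in CHBP- M-MDSC and at rank 95 in CHBP+ M-MDSC. Cfp stood at ranks 146 and 153. The 9 genes together took 0.251% (CHBP-) and 0.283% (CHBP+) of all counted reads, and C3 and Cfp supplied 89.5% and 89.9% of those reads.

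**Figure D1:**
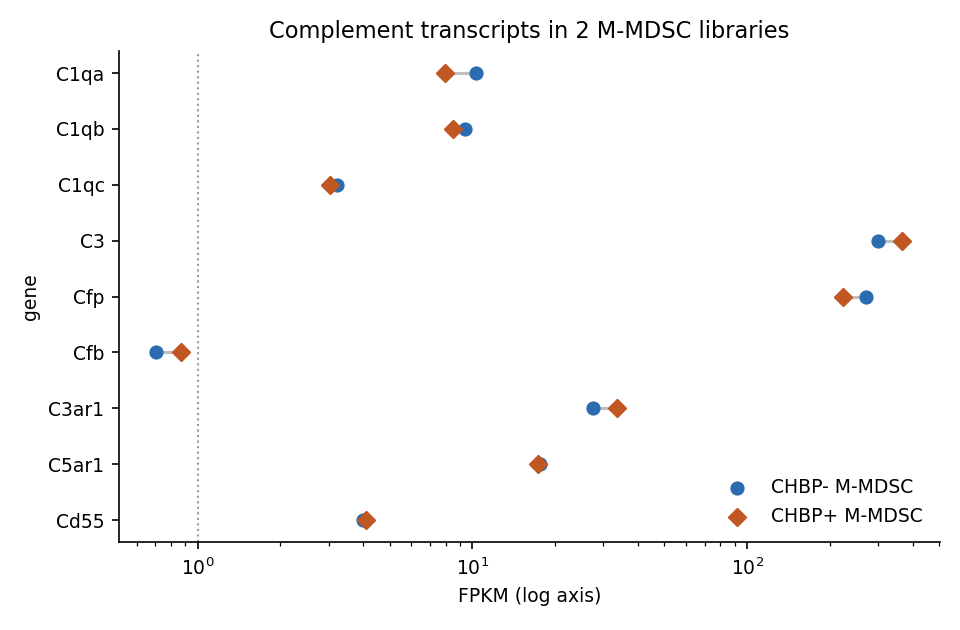
Level of each of the 9 complement genes in FPKM (log axis) in the CHBP- library (circles) and the CHBP+ library (diamonds), 1 library each, with a dotted line at 1 FPKM. C3 (299 and 368 FPKM) and Cfp (270 and 224 FPKM) lie far to the right, and Cfb lies below 1 FPKM in both libraries.

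None of the 9 complement genes differed by 1.5-fold, the fold threshold of the study. The study also set a P value limit, which cannot be applied here. Of the 9 genes, 8 had 1 FPKM or more with or without CHBP, and of these, 0 were at least 1.5-fold higher and 0 at least 1.5-fold lower in CHBP+ M-MDSC. Among all 10948 genes of at least 1 FPKM, 374 (3.42%) were at least 1.5-fold higher and 316 (2.89%) at least 1.5-fold lower. After removal of the trend with gene length described further on, those numbers were 358 and 155. With shares this small among all genes, 0 of 8 does not set the complement genes apart. The log2 ratios of the 9 genes lay between -0.33 (C1qa) and 0.30 (C3), with 4 above 0 and 5 below. The median over the 8 genes was -0.047, beside -0.028 over all 10948 genes.
The interval of the read ratio lay above 1 for 2 genes (C3 and C3ar1), below 1 for 2 genes (Cfp and C1qa), and spanned 1 for the other 5. Over all 14162 genes with at least 10 reads in total, 24.1% had an interval above 1 and 25.1% an interval below 1, so such a difference between these libraries was common. Counting error allowed a 1.5-fold difference for C1qa, whose interval reached down to 0.616, and for Cfb, whose interval reached up to 1.78.

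**Figure D2:**
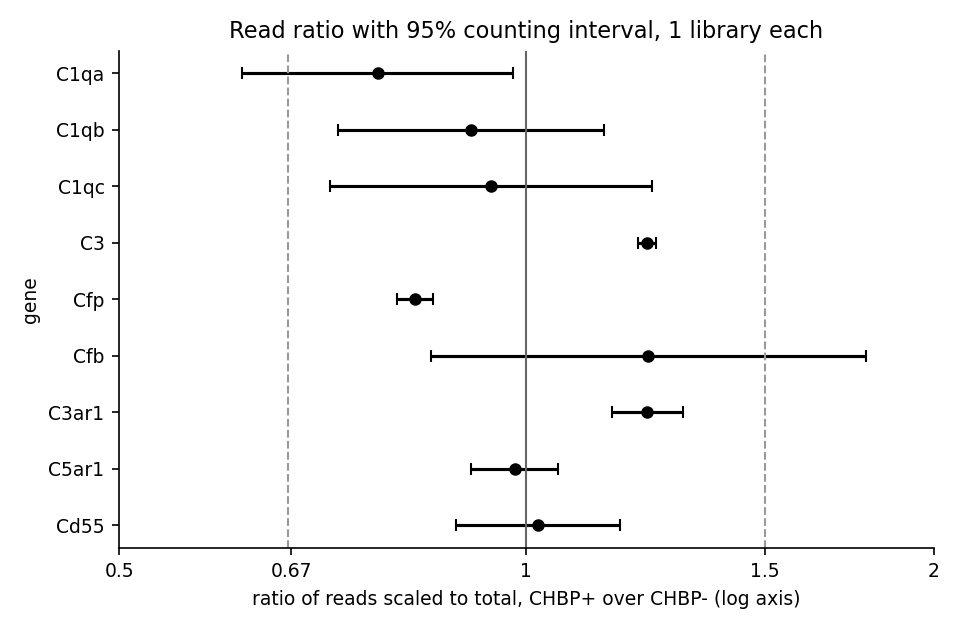
Read ratio (CHBP+ over CHBP-, scaled to the library totals, log axis) of each complement gene with its 95% Clopper-Pearson interval for counting error. The solid line marks no difference and the dashed lines a 1.5-fold difference. The intervals of C3 and C3ar1, both at 1.23, lie wholly to the right of the solid line. Those of Cfp and C1qa lie wholly to its left. Those of the other 5 genes span it, Cfb at 1.23 among them.

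C3, the component on which all activation pathways converge, is listed as ENSMUSG00000024164 on chromosome 17 from 57203970 to 57228136 (GRCm38). Its reads numbered 28029 without CHBP (299 FPKM) and 33995 with CHBP (368 FPKM). The CHBP+ library was the higher one, with a log2 ratio of 0.30 and a read ratio of 1.23 (95% interval 1.21 to 1.25).
C3ar1, the receptor of the C3a peptide, is listed as ENSMUSG00000040552 on chromosome 6 from 122847138 to 122856161. It had 1947 reads without CHBP (27.4 FPKM) and 2361 with CHBP (33.7 FPKM). Its log2 ratio was 0.29 and its read ratio was 1.23 (1.16 to 1.30). The component and its receptor were thus higher by nearly the same factor, and by the deposited FPKM the level of C3 was 10.9 times that of C3ar1 in each library. The ratio of C3 to C3ar1 in CHBP+ over that in CHBP- M-MDSC was 1.00 (conditional exact 95% interval 0.939 to 1.06). With the length trend described further on removed, the log2 ratios were 0.30 for C3 and 0.32 for C3ar1. They were less alike, at 0.11 and 0.19, with the trend by GENCODE M1 transcript length removed.
Cfp encodes properdin and is listed as ENSMUSG00000001128 on chromosome X from 20925454 to 20931555. It had 9082 reads without CHBP (270 FPKM) and 7423 with CHBP (224 FPKM). Here the CHBP- library was the higher one, with a log2 ratio of -0.27 and a read ratio of 0.828 (0.802 to 0.853). C3 and Cfp thus differed in opposite directions. By the deposited FPKM their levels were close in CHBP- M-MDSC, where C3 stood at 1.11 times Cfp, and further apart in CHBP+ M-MDSC, where it stood at 1.64 times Cfp. The second ratio was 1.48 times the first (Wald 95% interval 1.43 to 1.54). Neither the ratio nor its interval takes account of the length trend described further on, and Cfp is the shorter gene. With that trend removed, the log2 ratios were 0.30 for C3 and -0.076 for Cfp. They were 0.11 and -0.064 with the trend by GENCODE M1 transcript length removed. With the longest GENCODE M1 transcript as length, C3 stood just below Cfp in CHBP- M-MDSC (331 and 337 FPKM) and above it in CHBP+ M-MDSC (407 and 279 FPKM).
Cfb, the protease subunit of the alternative C3 convertase and listed as ENSMUSG00000090231 on chromosome 17 from 34856374 to 34862518, was low. Its 56 and 68 reads gave 0.708 FPKM in CHBP- and 0.870 FPKM in CHBP+ M-MDSC. These rest on an implied length of 4800 bases, and with its longest GENCODE M1 transcript of 2751 bases Cfb stood at 1.23 and 1.52 FPKM, above the filter. The read ratio was 1.23, but its interval ran from 0.851 to 1.78, so that a difference in either direction was not detectable at this depth. Cfb is overlapped by the listed gene Gm20547, which held 0 and 2 reads.

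C5ar1, which encodes the main receptor of the C5a peptide, is listed as ENSMUSG00000049130 on chromosome 7 from 16246743 to 16259540. It had 1462 and 1415 reads, or 17.7 FPKM in CHBP- and 17.3 FPKM in CHBP+ M-MDSC. Its read ratio of 0.980 had an interval from 0.910 to 1.06 (log2 ratio -0.028). The libraries therefore lay within counting error of each other for C5ar1, unlike for C3ar1. Relative to C5ar1, the reads of C3ar1 stood in CHBP+ at 1.25 times their CHBP- value (conditional exact 95% interval 1.14 to 1.38). This comparison does not depend on how the libraries are scaled, but it does depend on the length trend described further on. With that trend removed, the log2 ratios were 0.32 for C3ar1 and -0.0019 for C5ar1. They were 0.19 and 0.060 with the trend by GENCODE M1 transcript length removed.
Which receptor had the higher level depended on the gene length used. By the deposited FPKM, C3ar1 stood above C5ar1 in both libraries, at 1.55 and 1.95 times its level. The deposited values imply a length of 5021 bases for C5ar1, whereas its longest transcript in the GENCODE M1 annotation has 2540 bases. With that length, C5ar1 stood at 34.9 and 34.2 FPKM, above C3ar1 in CHBP- M-MDSC and close to it in CHBP+ M-MDSC.

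C1qa (ENSMUSG00000036887), C1qb (ENSMUSG00000036905) and C1qc (ENSMUSG00000036896) encode the chains that assemble into C1q, and they lie side by side on chromosome 4 within 18675 bases, from 136880129 to 136898803, in the order C1qb, C1qc, C1qa. C1qa had 176 reads without CHBP (10.3 FPKM) and 135 with CHBP (7.97 FPKM). C1qb had 168 and 151 reads, or 9.37 and 8.52 FPKM. C1qc had 114 and 106 reads, or 3.22 and 3.03 FPKM. Each of the C1q genes was lower in the CHBP+ library, and only for C1qa did the interval leave out 1. The read ratio was 0.777 for C1qa (0.616 to 0.977), 0.910 for C1qb (0.726 to 1.14) and 0.941 for C1qc (0.716 to 1.24). Summed, the C1q genes had 458 and 392 reads, a read ratio of 0.867 (0.755 to 0.994). A difference between the chains in this ratio was not detectable, since the ratio of C1qa to C1qc in CHBP+ over that in CHBP- M-MDSC was 0.825 with a conditional exact interval from 0.575 to 1.18.
The chain genes stood at unequal levels by the deposited FPKM, with C1qa at 3.19 times C1qc in CHBP- M-MDSC and C1qb at 2.81 times C1qc in CHBP+ M-MDSC. The deposited length of C1qc is 2149 bases, whereas its longest GENCODE M1 transcript has 1203 bases. With transcript lengths, the highest chain stood at 1.79 and 1.58 times the lowest. The gap between the chains thus rested in part on the length by which C1qc was divided.

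Cd55 encodes decay-accelerating factor, which takes apart C3-cleaving enzymes on the cell's own surface. Listed as ENSMUSG00000026399 on chromosome 1 from 130439027 to 130462744, it had 411 and 414 reads, or 4.00 FPKM in CHBP- and 4.08 FPKM in CHBP+ M-MDSC. Its read ratio was 1.02 (0.888 to 1.17), as close to 1 as that of C5ar1, and its log2 ratio was 0.023. Cd55 is overlapped by the listed gene Gm16083, which held 0 and 5 reads.

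The differences between the libraries followed gene length, and the shortest complement genes lay at the lower end of their log2 ratios. The length implied by the deposited values and the log2 ratio had a Spearman's rho of 0.478 over 10948 genes, and genes are not independent of each other. The median log2 ratio was -0.30 in the 1095 shortest genes and 0.23 in the 1095 longest. C1qa (1040 bases), C1qb (1088 bases), Cfp (2037 bases) and C1qc (2149 bases) were the shortest of the 8 complement genes kept, and all 4 had log2 ratios below 0. C3ar1 (4305 bases), C3 (5680 bases) and Cd55 (6226 bases) had log2 ratios above 0, and C5ar1 (5021 bases) lay just below 0.
Set beside the median of the 500 genes nearest in length, C1qa differed by 0.0021 and C5ar1 by -0.0019 on the log2 scale. Cfp differed by -0.076 from its local median of -0.20 and lay within the quartiles of -0.34 and -0.030 of genes of its length. C3 lay 0.30 and C3ar1 0.32 above their local medians, beyond the upper quartiles of 0.16 and 0.13. C1qb lay 0.20 above its own, also beyond the upper quartile of -0.14, and C1qc lay 0.10 above its own, so that after removal of the trend the log2 ratios of all the C1q genes were above 0.
With the longest GENCODE M1 transcript as length, for which rho was 0.658 over 10508 genes, C3 lay 0.11 and C3ar1 0.19 above the local median. By that length Cfp differed from it by -0.064 and C1qa by 0.0020. The excess of C3 over genes of like length thus depended on the length used, and the part of the length trend in these differences was not tested. Whether the trend came with CHBP or with the preparation of either library cannot be told apart.

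**Figure D3:**
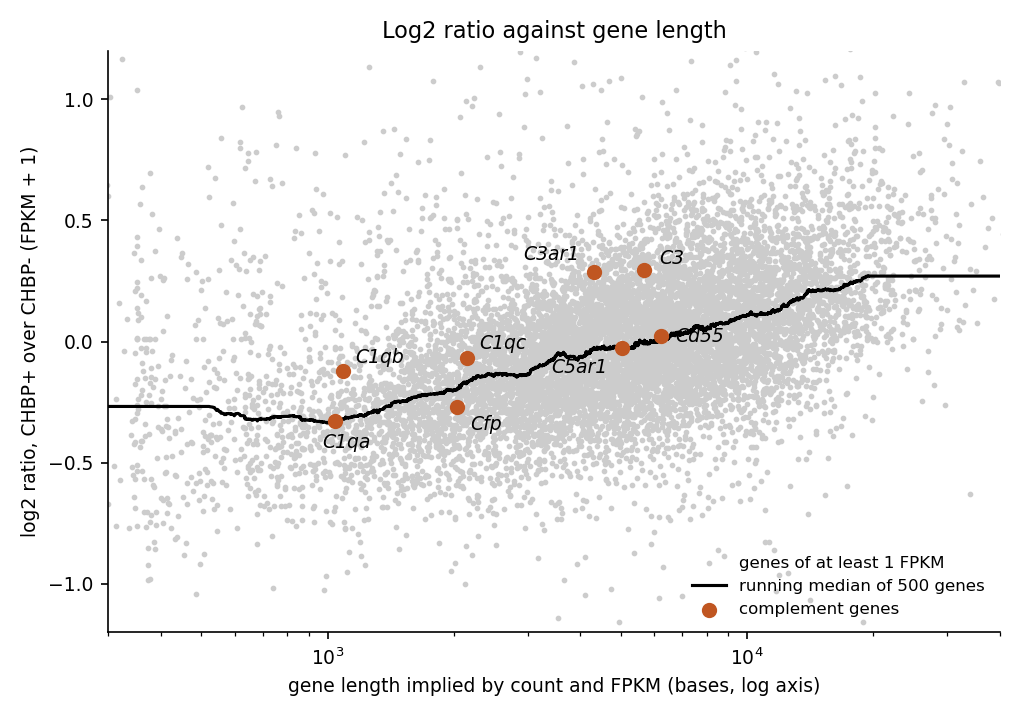
Log2 ratio (CHBP+ over CHBP-, FPKM + 1) against the gene length implied by count and FPKM (bases, log axis) for genes of at least 1 FPKM (grey), with the running median of 500 genes (line) and the 8 complement genes that reached 1 FPKM. The C1q genes and Cfp lie at the short end below 0, C5ar1 and Cd55 lie on the line, and C3 and C3ar1 lie above it; 127 of 10948 genes fall outside the axes.

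The rest of the complement system was read from a list of 64 genes, found as 66 rows. No read was counted on 20 of these rows, 23 others did not reach 1 FPKM, and 23 had 1 FPKM or more with or without CHBP. Of the last 23, 13 were higher and 10 lower in CHBP+ M-MDSC, 2 were at least 1.5-fold higher and 1 was at least 1.5-fold lower. The median log2 ratio of these 23 rows was 0.038, beside -0.028 over all genes kept. Over all 10948 genes kept, 3.42% were at least 1.5-fold higher and 2.89% at least 1.5-fold lower. The 2 higher rows were Lrp1 and the second of 2 entries of Itgam, and both Itgam entries summed had a read ratio of 1.496.
The components upstream of C3 were sparsely represented. C1ra, which encodes a C1r protease, had 294 and 328 reads (5.98 and 6.76 FPKM), and the C1r-like C1rl had 876 and 897 reads (17.7 and 18.3 FPKM). C1s1, C2, C4a and C4b stayed under 1 FPKM. Of the lectin pathway genes, Fcna, which encodes ficolin A, alone reached 1 FPKM, with 62 and 54 reads. Cfd, which encodes the factor D that activates factor B, had 2 reads in CHBP- and 0 in CHBP+ M-MDSC. None of the 7 terminal pathway genes reached 1 FPKM, and their highest read count was 22, that of C8g. Hc, which encodes C5, had 0 and 1 reads.
The receptors formed the best represented group of this list, with 10 of 12 rows at 1 FPKM or more. Of these, 8 were higher in CHBP+ M-MDSC, both entries of Itgam among them. The median log2 ratio of the 10 rows was 0.35, beside -0.028 over all genes kept. Itgam and Itgb2, the CD11b and CD18 chains of complement receptor 3, were abundant. CD11b was also one of the antigens used to sort the cells. Itgam is listed in 2 entries at overlapping positions, with 18653 and 27265 reads in the first and 8703 and 13147 reads in the second, so that reads could be divided between them. Together both entries had 27356 and 40412 reads, a read ratio of 1.496 (1.47 to 1.52), and only the second entry, with a log2 ratio of 0.61, passed the 1.5-fold threshold. Itgb2 had 350 and 388 FPKM (log2 ratio 0.15). Itgax, the CD11c chain of complement receptor 4, had 107 and 142 FPKM (log2 ratio 0.41).
Lrp1, a large endocytic receptor that also binds C1q, had 12.9 and 23.0 FPKM, the highest log2 ratio of the 23 rows at 0.79. Its implied length of 20915 bases was the longest of the 23 rows, and it passed the threshold no longer once the length trend was removed, at 0.52 above the local median, or 0.35 by GENCODE M1 transcript length. Cd93, first described as a C1q receptor, had 55.3 and 80.4 FPKM (log2 ratio 0.53). Calr, a chaperone that binds C1q at the cell surface, had 423 and 368 FPKM (log2 ratio -0.20). C5ar2, the other receptor of C5a, had 102 and 105 reads (1.74 and 1.81 FPKM).
Among the regulators, Cr1l, which encodes the rodent C3 regulator Crry, had 1324 and 1369 reads (6.27 and 6.56 FPKM) and thus stood above Cd55 in FPKM. Cd59a, which blocks the membrane attack complex, had 108 reads in CHBP- and 46 in CHBP+ M-MDSC, a read ratio of 0.431 (0.299 to 0.614). With 1.84 and 0.793 FPKM its log2 ratio was -0.66, the lowest of the 23 rows, and it was -0.61 with the length trend removed and -0.48, short of the threshold, by GENCODE M1 transcript length. C1qbp, a C1q-binding protein found mainly in mitochondria, had 26.7 and 20.0 FPKM (log2 ratio -0.40). Clu, which encodes clusterin, had 141 and 123 reads. Cd46 stayed under 1 FPKM with 44 and 48 reads.

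**Figure D4:**
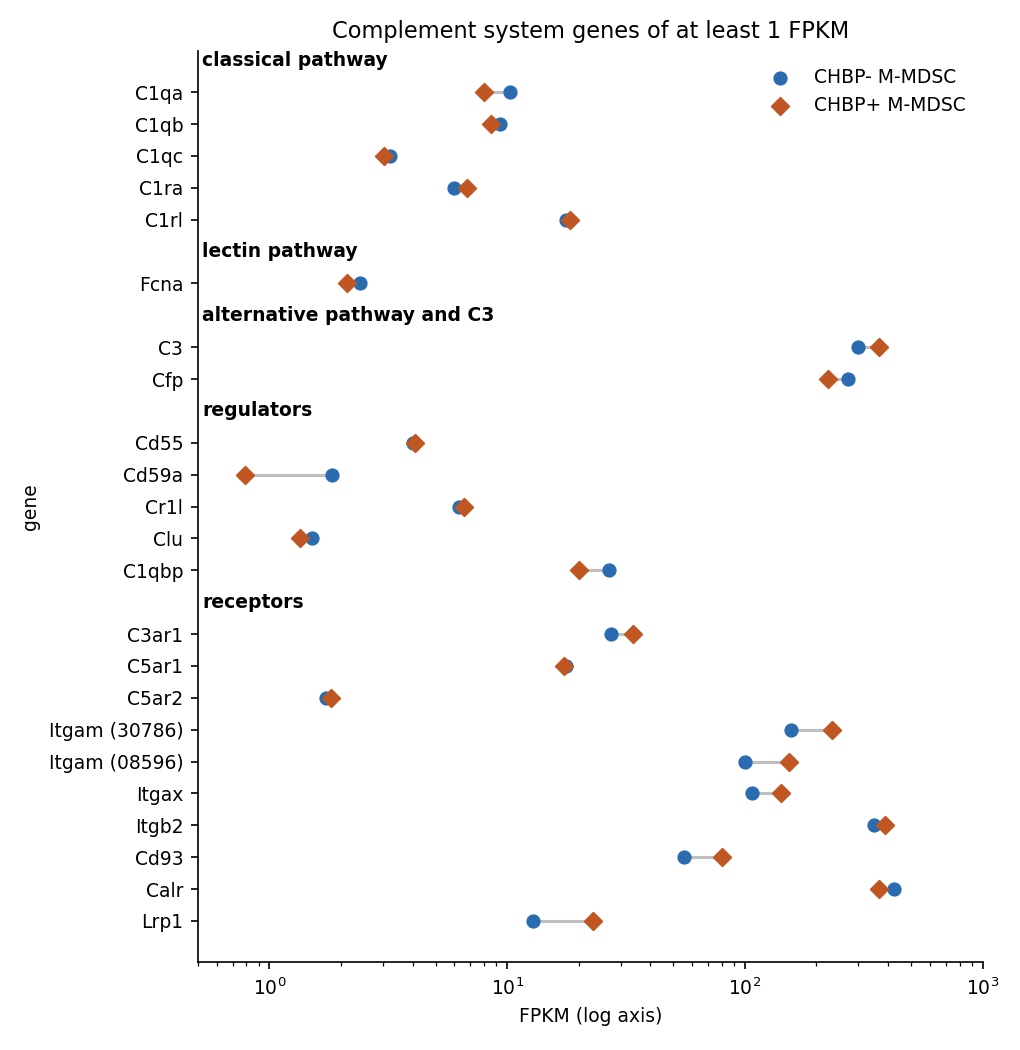
Level in FPKM (log axis) of the 23 rows of the complement list that reached 1 FPKM, by pathway, in the CHBP- library (circles) and the CHBP+ library (diamonds); Itgam has 2 entries, marked by the last digits of their identifiers. Receptors hold most of the abundant transcripts together with C3 and Cfp, and no terminal pathway gene appears.

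Markers of cell types that make or carry complement were read in the same libraries. Hepatocyte markers were absent or nearly so, with Alb, Apoa1 and Serpina1a at 0 reads in both libraries and Ttr at 3 and 0 reads. All 6 monocyte markers reached 1 FPKM in 7 rows, 4 of them higher and 3 lower in CHBP+ M-MDSC (median log2 ratio 0.15). Both entries of Itgam were among the higher rows. With the length trend removed, 3 rows were higher and 4 lower, or 3 and 3 by GENCODE M1 transcript length. The monocyte markers summed to 10190 FPKM in CHBP- and 8382 FPKM in CHBP+ M-MDSC, of which Lyz2 alone supplied 9756 and 7830 FPKM. Csf1r, which encodes the receptor of M-CSF, had 113 and 126 FPKM. Ly6c2, a gene of the sorting antigen, had 4091 and 2411 reads and a log2 ratio of -0.73, past the 1.5-fold threshold. The log2 ratio of Ly6c2 was -0.70 with the length trend removed and -0.36, short of the threshold, by GENCODE M1 transcript length. Of 8 macrophage markers 7 reached 1 FPKM, 5 of them higher and 2 lower in CHBP+ M-MDSC, whereas the C1q genes were lower. With the length trend removed, 6 of these 7 markers were higher, or 5 by GENCODE M1 transcript length. The log2 ratios of C1qa, C1qb and C1qc with the length trend removed were 0.0021, 0.20 and 0.10, so that the C1q genes no longer were lower. By GENCODE M1 transcript length they were 0.0020, 0.19 and 0.22. The macrophage markers summed to 472 and 503 FPKM, of which Adgre1 supplied 158 and 184 FPKM and Cd68 284 and 286 FPKM. The neutrophil markers were lower for 6 of 8 genes, with a sum of 1967 and 1417 FPKM, but with the length trend removed for 4 of 8. Ly6g, whose product the sort selected against, had 46 and 44 reads. Mast cell, basophil or eosinophil markers were lower for 7 of 7 genes (sums 395 and 310 FPKM). With the length trend removed, 4 of these 7 were lower, or 5 by GENCODE M1 transcript length. Erythroid markers (6 of 6 lower, sums 1305 and 602 FPKM) and B cell markers (3 of 3 lower, sums 25.8 and 17.0 FPKM) also were lower. These last 2 lists were lower in every gene with the trend removed too. Of the dendritic cell markers, 4 of 6 reached 1 FPKM, and 3 of these were lower and 1, Itgax, higher (median log2 ratio -0.22). Under 1 FPKM stood Zbtb46, with 49 and 93 reads, and Cd209a, with 13 reads in each library. The read ratio of Zbtb46 was 1.92 (1.35 to 2.77), so that it was higher in CHBP+ M-MDSC. The dendritic cell markers summed to 232 and 240 FPKM, a sum that followed Itgax. T or NK cell markers summed to 7.77 and 4.997 FPKM with Ncr1 at 0 reads, and stromal markers to 2.59 and 2.81 FPKM. The part of other cells in the levels of Cfp, C3 or C1q was not tested, and in sorted bulk RNA fewer cells of a type and less RNA per cell cannot be told apart.

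For the genes whose read ratio interval left out 1, and for C1qb as a gene of the C1q locus, the 250 bases before the RefSeq start are shown where the RefSeq promoter table (GRCm38.p6) held them. Of the 9 genes, 7 matched that table. The strand is minus for each of them, and the sequences run 5′ to 3′ toward the start. Capitals mark matches, on either strand, to short motifs: GAGGAA of PU.1 and other ETS factors, TTCNNNGAA of STAT factors, GAAANNGAA of interferon regulatory factors, TTGCNNAA of C/EBP factors, the MAF factor letters TGCTGA and the TATA box letters TATAAA.
C3, chr17:57228137-57228386: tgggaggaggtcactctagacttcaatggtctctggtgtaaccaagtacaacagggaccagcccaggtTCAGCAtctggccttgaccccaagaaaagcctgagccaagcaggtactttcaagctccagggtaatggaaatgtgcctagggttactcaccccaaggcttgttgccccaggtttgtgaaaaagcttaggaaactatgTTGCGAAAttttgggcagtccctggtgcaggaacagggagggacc
C3ar1, chr6:122856158-122856407: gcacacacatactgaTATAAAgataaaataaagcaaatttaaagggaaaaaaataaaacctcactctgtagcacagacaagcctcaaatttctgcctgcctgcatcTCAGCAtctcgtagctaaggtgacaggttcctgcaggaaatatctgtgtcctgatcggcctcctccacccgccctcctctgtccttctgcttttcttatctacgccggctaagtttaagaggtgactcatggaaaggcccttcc
Cfp, chrX:20931556-20931805: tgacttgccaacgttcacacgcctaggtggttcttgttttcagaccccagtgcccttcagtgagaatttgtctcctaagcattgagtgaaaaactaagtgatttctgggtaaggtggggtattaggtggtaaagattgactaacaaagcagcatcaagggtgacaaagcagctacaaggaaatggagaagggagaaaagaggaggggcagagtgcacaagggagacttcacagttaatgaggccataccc
C1qb, chr4:136886201-136886450: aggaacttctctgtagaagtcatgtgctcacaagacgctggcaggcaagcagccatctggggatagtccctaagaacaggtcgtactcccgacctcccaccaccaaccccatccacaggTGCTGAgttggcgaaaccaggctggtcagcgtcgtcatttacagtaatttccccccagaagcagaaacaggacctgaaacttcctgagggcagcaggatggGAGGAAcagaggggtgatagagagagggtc

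The C3 window held 2 matches, a C/EBP match from 45 to 38 bases before the start and a MAF match from 182 to 177 bases before it. The C3ar1 window also held 2, a MAF match and the TATA letters, the latter from 235 to 230 bases before the start. The Cfp window held 0 matches. The C1qb window held a MAF match and an ETS match from 30 to 25 bases before the start. Over the 7 windows read, the MAF letters were found in 5 (C1qb, C3, C3ar1, C5ar1 and Cd55), and 15.8% of 27025 promoter windows of the same length hold them. The ETS letters were in 2 (C1qb and C1qc) beside 23.1% of all windows, and the C/EBP letters in 1 (C3) beside 9.55%. The interferon regulatory factor letters were in 1 (C5ar1) beside 7.16%, the TATA letters in 1 (C3ar1) beside 13.0%, and the STAT letters in 0 beside 7.18%. These are matches of letters in a window, and binding was not measured.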

How the data were processed

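Total RNA of sorted M-MDSCs was sequenced as single-end 75-base reads, 1 library per condition. Per the labels, adapter sequence, 3′ bases under quality 20, reads under 25 bases and ribosomal RNA reads were removed with Seqtk. The methods name TopHat2, HT-seq and mm9, whereas the submitters' processing notes name HISAT2 2.0.4, Cufflinks 2.1.1, Cuffdiff, mm10 and GRCm38. All 9 genes overlapped their RefSeq gene on GRCm38 and 0 overlapped their mm9 gene, so GRCm38 is used for positions. The authors deposited raw read counts and FPKM per gene, the FPKM being counts over gene length and library total, and the length each gene implies agreed between libraries within 0.0065%. How reads of overlapping genes and strands were counted is not given in the sources used here.

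Samples were grouped by their treatment labels. With 1 library per condition, no count model was fitted and no p-value is given. Log2 ratios used a pseudocount of 1 FPKM, a 1.5-fold threshold and only genes that had 1 FPKM or more with or without CHBP. Intervals of reads are 95% Clopper-Pearson intervals, and those of ratios between a pair of genes are conditional exact or Wald intervals. They cover counting error only and leave out any spread between libraries. They also treat reads as independent molecules, which reads are not. The genes named are the 9 members, the listed complement genes and the marker genes. The members and lists were chosen with earlier results of these data known, and C1s1, C2, C4a, C4b, Cfd, C8g, Hc and Cd46, all under 1 FPKM, as well as the pairs of genes compared, were chosen after their values were seen. Python 3.11.15, numpy 2.4.6, pandas 2.3.3, scipy 1.17.1, matplotlib 3.10.9 and edgeR 4.0.16 in R 4.3.3 were used. The calls, intervals and trend removal were run on simulated counts as a check of the code. Those counts held counting error only and a smooth trend in the same length used to remove it. The check therefore cannot show how the methods perform where libraries differ for other reasons.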

Additional observations from a re-analysis of the deposited data

How the results depend on the processing

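Under every alternative run (pseudocount of 0.1, CPM, median centring, trimmed mean of M values, removal of the length trend by either length, no filter, at least 5 FPKM, a fold threshold of 2), 0 complement genes of the 9 passed the threshold in either direction. The log2 ratios of C3, C3ar1, Cfp, Cfb and Cd55 kept their sign under each scaling. Those of the C1q genes changed sign with the length trend removed, and that of C5ar1 did so with median centring and with the trend by GENCODE M1 transcripts removed, all within its counting interval. Over all genes, 665 were higher and 571 lower with a pseudocount of 0.1, 609 higher with CPM, 218 and 209 with at least 5 FPKM, 85 and 46 at a fold of 2, 155 lower with the length trend removed, and 243 and 107 with the trend by GENCODE M1 transcripts removed (added once the data had been seen). In the complement list, the 2 higher rows became 1 with the length trend removed and 0 at a fold of 2 or with the transcript trend removed. The second Itgam entry has no GENCODE M1 transcript and drops out of the last count. The 1 lower gene became 0 at a fold of 2, with at least 5 FPKM or with the transcript trend removed. The log2 ratio of C3ar1 to C5ar1 was 0.64 in CHBP- and 0.96 in CHBP+ M-MDSC by FPKM, 0.41 and 0.74 by CPM, and reversed to -0.35 and -0.023 with GENCODE M1 transcript lengths (also added then), because the length of C5ar1 is shorter there. That of C3 to Cfp was 0.15 and 0.72 by FPKM, and with those lengths reversed to -0.024 in CHBP- but was 0.55 in CHBP+ M-MDSC. The highest C1q chain stood at 1.54 and 1.42 times the lowest by CPM, and at 1.79 and 1.58 times with transcript lengths. No paired analysis was possible because each condition has a single library, which also means that none could be left out. Depth limits Cfb and the C1q genes most.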
